A study of Mus musculus with 22 samples.

Results

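The PYHIN genes are a family of interferon-inducible genes that lie next to each other on mouse chromosome 1. They are named for their protein domains, a pyrin domain that binds other proteins and a HIN domain that binds DNA. Several family members act as sensors of DNA in the cytosol or nucleus of myeloid cells, where AIM2 assembles an inflammasome and others feed the STING pathway that induces type I interferon. The 10 genes described here, of 46882 in the deposited table, were Pydc3, Pydc4, Aim2, Mnda, Mndal, Ifi202b, Ifi203, Ifi204, Ifi205 and Pyhin1. They were chosen by name, with the values of Pydc3 in tumors known: it was lower in wild-type tumors, where other interferon genes were higher. The comparison of the hosts, wild type against RAG1-/-, is therefore given as a description, with no test, for these genes and for the pathway genes set beside them.

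MC38 cells, a line from a carcinogen-induced colon tumor of a C57BL/6 mouse, were injected subcutaneously into wild-type C57BL/6N mice and into RAG1-/- mice of the strain B6.129S7-Rag1tm1Mom/J, which lack mature T and B cells and keep myeloid and NK cells. RNA was sequenced from 3 wild-type tumors each of day 23 and day 46, from 3 tumors each of day 13 and day 23 labelled RAG1-/-, from 2 samples of cultured MC38 cells of day 0 and from 2 samples of skin of wild-type C57BL/6N mice labelled day 23. The mice are given as 8 to 12 weeks old. The methods state this age for tumor hosts at injection and describe these hosts as female. Hosts of later days were therefore older when sampled. Genotype and strain background cannot be told apart, and day 23 is the single day that both hosts share. The labels do not say whether the MC38 samples were separate cultures, so p-values measure the spread between the samples given.

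The table held QuantSeq reads, which come from the 3′ end of transcripts, as DESeq2-normalized counts of 16 libraries with 5589151 to 26134241 reads on genes, and 3 reads, taken as the floor of detection, stood at 1.33 to 6.38 normalized counts. That floor covers counting error only. The host labels were checked on lymphocyte genes: Cd3e was at 0 in all 6 tumors labelled RAG1-/- and at 3.91 to 23.2 normalized counts in the 6 wild-type tumors. Rag1 itself went the other way, with 1 read in the 6 wild-type tumors together and 1 to 12 reads in each tumor labelled RAG1-/-, but a 3′ tag may lie outside the deleted part and then checks nothing. The epithelial genes Krt8, Krt18 and Epcam were at 0 to 4.28 normalized counts in MC38 cells. Both skin libraries read the Y-linked gene Ddx3y (1803 and 1919 normalized counts) and no Xist, whereas every tumor read Xist, the pattern of male skin and female tumor hosts. The second skin library was higher than the first for all 10 PYHIN genes and for the interferon gene Isg15 (1045 against 174 normalized counts), and the skin libraries are therefore also taken one at a time.

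The 10 genes lie within 681 kb of chromosome 1 (GRCm38, the build of mm10, positions 173350879 to 174031810), from Aim2 at one end to Ifi205 at the other. Current RefSeq names differ for some of them: Pydc3 is Ifi208, Pydc4 is Ifi213, Mnda is Ifi211 and Pyhin1 is Ifi209. Pydc3 covers 173673675 to 173698395 on the plus strand and Pydc4 covers 173566283 to 173599274 on the minus strand. Several of the genes share sequence with each other, and this touches the counts, because a 3′ read can match more than 1 gene. Of all 50-base stretches in the last 500 bases of the annotated transcripts, 14.4% for Pydc3 and 18.7% for Pydc4 also occurred in another gene, in each case including the partner of this pair. That share was 77.4% for Mnda and 79.2% for Ifi205, which share sequence with each other and with Mndal. For Pyhin1, which shares sequence with Ifi214, it was 63.4%. Levels of these 3 genes are the most uncertain. It was 18.7% for Mndal, whose annotated span also overlaps that of Ifi203 on the same strand, and at most 2.22% for Aim2, Ifi202b, Ifi203 and Ifi204.

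Promoter sequences were taken from RefSeq (GRCm38.p6) for 9 of the 10 genes. The windows of 5 are shown, each as the 250 bases before the annotated start: the near-identical pair Pydc3 and Pydc4, then Mndal, Aim2 and Ifi202b, whose levels stood apart from the rest of the family. Capitals mark a double GAAA, which is GAAA, any 2 bases and GAAA again, a pattern of interferon-stimulated response elements, or TTCNNNGAA, a pattern of gamma-activated sites, on either strand.
Pydc3, chr1:173673415-173673664, plus strand: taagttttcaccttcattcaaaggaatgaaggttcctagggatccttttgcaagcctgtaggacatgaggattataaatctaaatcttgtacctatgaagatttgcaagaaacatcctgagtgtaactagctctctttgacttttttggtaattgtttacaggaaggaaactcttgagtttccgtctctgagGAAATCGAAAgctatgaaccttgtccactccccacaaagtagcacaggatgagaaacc
Pydc4, chr1:173599273-173599522, minus strand: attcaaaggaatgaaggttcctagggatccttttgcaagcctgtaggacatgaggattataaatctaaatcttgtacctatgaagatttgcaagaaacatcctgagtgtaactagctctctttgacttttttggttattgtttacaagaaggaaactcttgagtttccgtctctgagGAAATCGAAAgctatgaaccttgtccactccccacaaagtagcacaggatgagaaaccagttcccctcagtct
Mndal, chr1:173880188-173880437, minus strand: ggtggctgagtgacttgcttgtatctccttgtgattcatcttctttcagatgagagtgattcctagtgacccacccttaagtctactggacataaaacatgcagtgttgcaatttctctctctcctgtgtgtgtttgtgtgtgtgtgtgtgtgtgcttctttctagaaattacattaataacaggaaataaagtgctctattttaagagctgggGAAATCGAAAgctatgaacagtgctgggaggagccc
Aim2, chr1:173420354-173420603, plus strand: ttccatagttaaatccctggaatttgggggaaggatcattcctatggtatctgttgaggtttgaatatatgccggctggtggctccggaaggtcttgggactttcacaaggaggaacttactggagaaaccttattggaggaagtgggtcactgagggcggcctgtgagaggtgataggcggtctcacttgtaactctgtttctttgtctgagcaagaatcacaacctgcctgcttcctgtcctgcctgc
Ifi202b, chr1:173982845-173983094, minus strand: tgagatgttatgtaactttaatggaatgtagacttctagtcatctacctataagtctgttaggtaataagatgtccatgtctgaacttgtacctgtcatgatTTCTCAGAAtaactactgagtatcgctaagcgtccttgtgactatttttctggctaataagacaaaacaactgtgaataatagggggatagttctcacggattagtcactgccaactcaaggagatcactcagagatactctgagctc
The windows of Pydc3 and Pydc4 aligned over 235 bases, of which 233 (99.1%) were identical, and both held the double GAAA, 58 and 73 bases before the annotated start. Mnda, Mndal, Ifi203 (from another annotated start) and Ifi205 held the pattern as well, whereas these letters did not occur in the windows of Aim2, Ifi202b and Pyhin1. Among 32841 mouse promoter windows, 2.98% held the double GAAA and 7.02% held TTCNNNGAA, which Ifi202b alone of the 9 genes had. A match describes the letters and does not show a binding site.

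Pydc3, which encodes a protein with a pyrin domain, was read in tumors labelled RAG1-/- and in skin, hardly in wild-type tumors, and not at all in cultured MC38 cells. The wild-type tumors held 0.738, 0 and 0 normalized counts on day 23 and 4.89, 2.01 and 2.51 on day 46. Tumors labelled RAG1-/- held 21.4, 34.5 and 21.9 on day 13 and 41.9, 19.2 and 35.8 on day 23. Every wild-type tumor was lower than every tumor labelled RAG1-/-, and 4 of the 6 wild-type values were at or under the floor of 3 reads. The 13 reads of the wild-type tumors stood against 196 reads of the others, a ratio of normalized reads of 17.2 in favour of RAG1-/-. On day 23 alone the ratio was 110, with 1 read against 122, of which 81 came from 1 library. These ratios are given without an interval, because Pydc3 was chosen on this contrast. On the scale log2(normalized count + 1) the means differed by −3.72 over both days and by −4.72 on day 23, a scale that understates the change of genes near 0. Among the 14746 genes whose mean over the tumors reached 5 normalized counts, 49 (0.332%) had every wild-type tumor under every tumor labelled RAG1-/-. Pydc3 passed that minimum only through the tumors labelled RAG1-/-, and because it was chosen for this pattern nothing is read from its place among them.

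The order of Pydc3 across the groups was skin (70.7 ± 67.7, SD, n = 2), RAG1-/- day 23 (32.3 ± 11.8, n = 3), RAG1-/- day 13 (25.9 ± 7.40, n = 3), wild type day 46 (3.14 ± 1.54, n = 3), wild type day 23 (0.246 ± 0.426, n = 3) and MC38 cells (0 in both). Skin overlapped RAG1-/- day 23, the 2 groups labelled RAG1-/- overlapped each other, and wild type day 23 overlapped MC38 cells. The step from RAG1-/- day 13 to wild type day 46 and the step between the wild-type days showed no overlap. In bulk tissue, fewer cells of a type and less RNA per cell cannot be told apart. Set against Ptprc (CD45, on all leukocytes), Pydc3 amounted to 0.242 counts per 100 of Ptprc on average in wild-type tumors (0 to 0.678). In tumors labelled RAG1-/- it was 4.40 (2.27 to 8.10), without overlap. The same counts on which Pydc3 was chosen enter this scale, so nothing further is read from it.

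**Figure D1:**
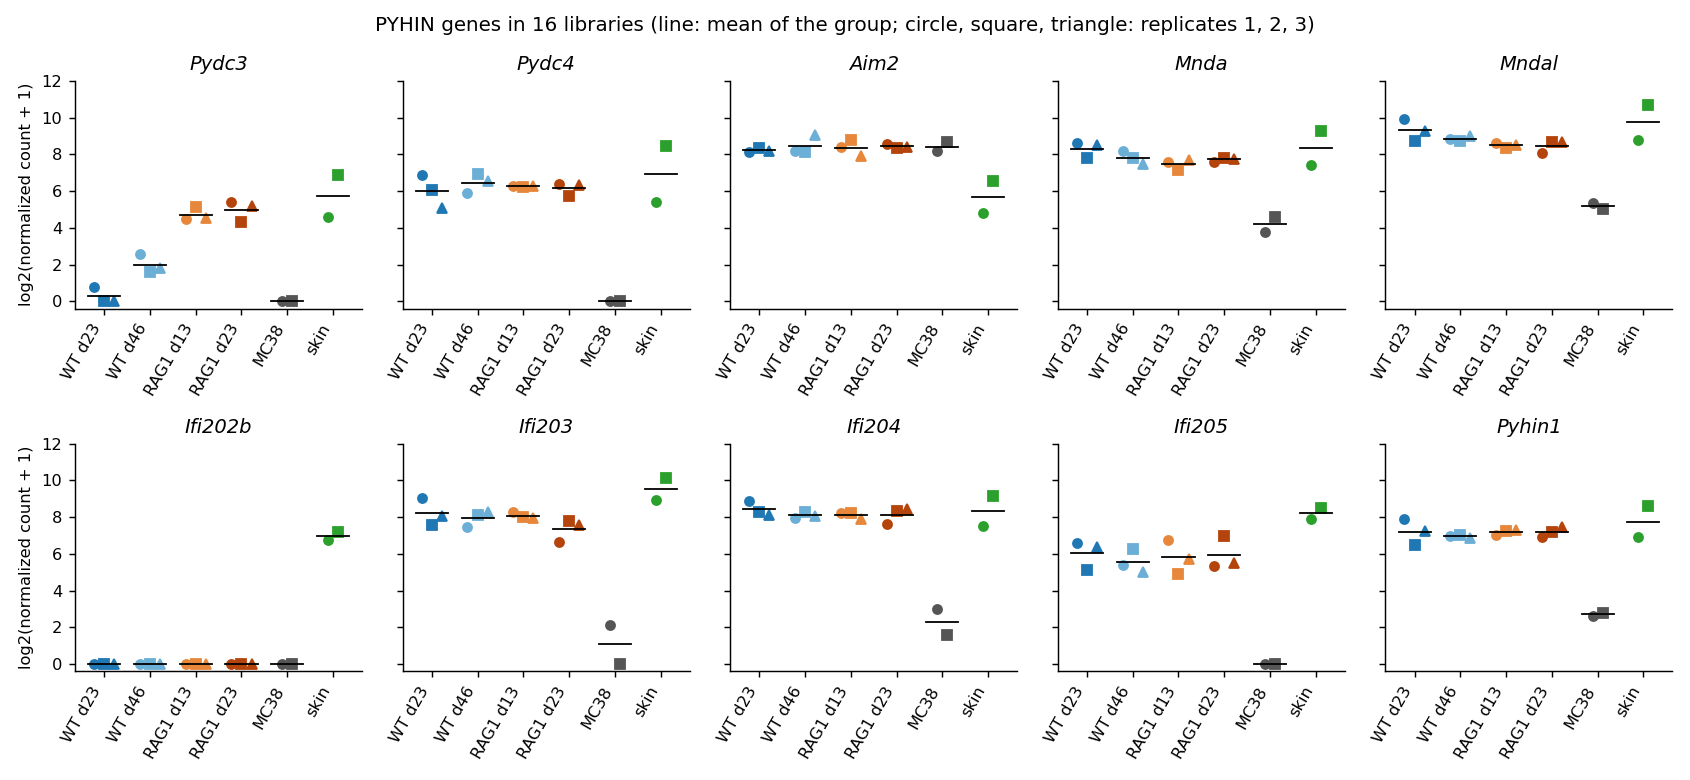
Normalized counts of the 10 PYHIN genes in the 16 libraries, on the scale log2(normalized count + 1), by group (WT, wild-type tumors; RAG1, tumors labelled RAG1-/-; d, day). Points are libraries and the line is the group mean: Pydc3 is the one gene near 0 in wild-type tumors and not in tumors labelled RAG1-/-, Aim2 alone is as high in MC38 cells as in tumors, and Ifi202b is read in skin only.

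Pydc4, the closest relative of Pydc3 in the promoter, did not follow it. Its values in wild-type tumors were 117, 65.6 and 33.3 on day 23 and 58.6, 120 and 93.5 on day 46, against 78.1, 73.4 and 77.2 on day 13 and 82.5, 53.2 and 80.9 on day 23 in tumors labelled RAG1-/-. The groups overlapped, with means of 81.2 ± 34.4 and 74.2 ± 10.8 (SD, n = 6 each) and a log2 difference of 0.02. Wild-type tumors thus held 643 reads of Pydc4 beside 13 of Pydc3, whereas tumors labelled RAG1-/- held 491 beside 196. Over the 12 tumors the correlation of Pydc3 with Pydc4 on the log2 scale was 0.13, a description over libraries that fall into groups.

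Mndal, an MNDA-like nuclear protein, was the only one of the 10 with every wild-type tumor above every tumor labelled RAG1-/-. Wild-type tumors held 968, 419 and 626 normalized counts on day 23 and 457, 417 and 504 on day 46. Tumors labelled RAG1-/- held 386, 330 and 363 on day 13 and 267, 404 and 413 on day 23. The groups were separated by a narrow margin, 417 against 413, and the mean log2 difference was 0.59, or 0.83 on day 23. Among the 14746 genes, 96 (0.651%) lay wholly above in wild-type tumors in this way. Rescaling the libraries to the same upper quartile or total ended the separation of Mndal, and only Pydc3 then remained apart.

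The other 7 genes overlapped between the hosts. Mnda, the myeloid cell nuclear differentiation antigen, had log2 means 0.47 higher in wild-type tumors, with 3 of 6 wild-type values above the highest RAG1-/- value. Ifi203 was 0.39 and Ifi204, a STING-linked DNA sensor, 0.13 higher, whereas Aim2, Ifi205 and Pyhin1 differed by −0.06, −0.08 and −0.10. On day 23, the day the hosts share, the log2 difference of Ifi203 was 0.90 and thus above that of Mndal. Mnda was then 0.59 and Ifi204 0.30 higher, Ifi205 and Pyhin1 stood at 0.08 and 0.02, on the other side of 0 from both days together, and Pydc4 and Aim2 stood at −0.15 and −0.20. SDs within a host were 0.20 to 0.83 on the log2 scale for these 6 genes, so that over both days all but Mnda lay within 1 SD of both hosts. Ifi202b had no read in any tumor. For Mnda, Ifi205 and Pyhin1 the shared 3′ sequence means that reads of different copies cannot be told apart with certainty.

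**Figure D2:**
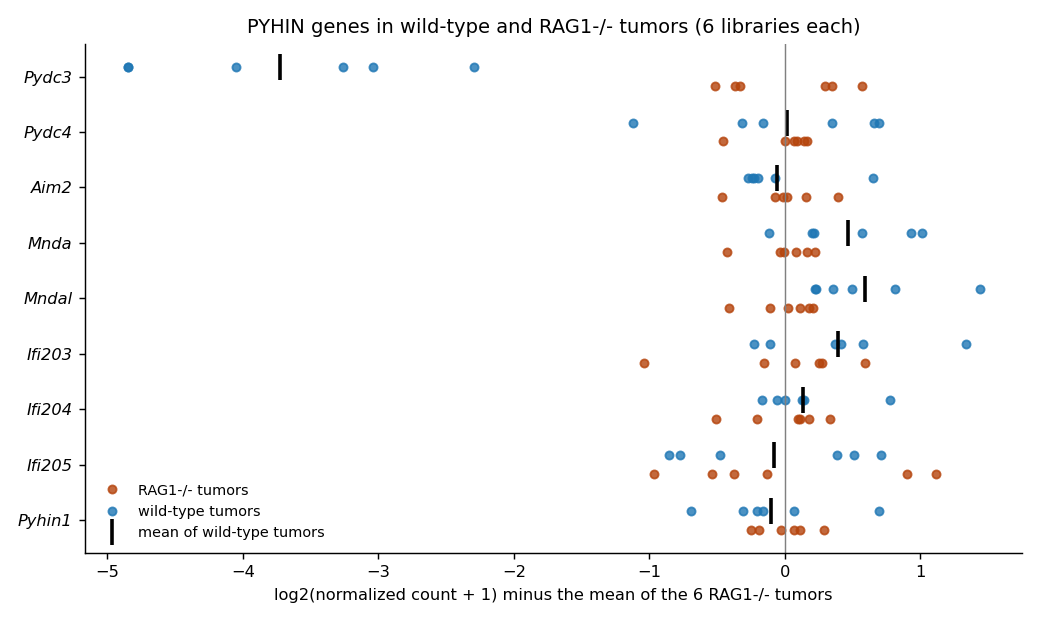
Each point is a tumor, placed by its log2(normalized count + 1) minus the mean of the 6 tumors labelled RAG1-/- for that gene; the black mark is the mean of the 6 wild-type tumors, at −3.72 for Pydc3 and 0.59 for Mndal. Ifi202b, at 0 in all tumors, is left out.

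Other genes of the same pathways were set beside the family from lists chosen with earlier results of these data known. Between the hosts they are described with no test, as the choice of Pydc3 rested on other interferon genes being higher there. Over the 19 genes stimulated mainly by interferon gamma, the median log2 difference of wild type minus RAG1-/- was 1.19 (−0.08 to 4.72), against 0.01 over all 14746 genes. Cxcl9, a T cell attracting chemokine, had 2254 ± 1040 normalized counts in wild-type tumors and 82.6 ± 33.8 in tumors labelled RAG1-/-. Iigp1, an interferon-inducible GTPase, had 1572 ± 863 and 214.6 ± 65.5 (SD, n = 6 each). Over 24 genes stimulated mainly by type I interferon the median was 0.06 (−0.88 to 0.40). Mx1, an antiviral GTPase of that list, had 95.7 ± 49.6 and 168 ± 68.4.

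The partners of the family had medians near 0. Over 10 inflammasome genes the median was 0.09, with a range of −0.66 to 0.78. Casp1, the inflammasome protease, had 530 ± 238 normalized counts in wild-type tumors and 299 ± 149 in tumors labelled RAG1-/-, and its substrate Il1b 332 ± 107 and 522 ± 169. Over 10 genes of cytosolic DNA sensing the median was −0.02, with a range of −0.19 to 0.73. Zbp1, a sensor of Z-form nucleic acid, had 500 ± 203 against 307 ± 131, and Tmem173 (STING) 439 ± 92.5 against 309 ± 50.2. Over both days, the log2 means of Casp1 and Zbp1 thus differed more between the hosts than those of any of the 10 PYHIN genes but Pydc3. The 3 further PYHIN genes above the minimum had log2 differences of −0.18 to 0.05. AI607873 (Ifi207) stood at 170 ± 60.5 and 189.6 ± 51.4, and Gm4955 (Ifi206) at 98.3 ± 44.8 and 91.8 ± 25.9. Of 8 interferon genes only Ifng reached the minimum, at 0 to 22.9 normalized counts.

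The summed levels of markers of dendritic cells, macrophages and neutrophils overlapped between the hosts, and those of T cells did so only at the edge of their ranges. The summed level of 7 T cell markers was 17.6 to 215 normalized counts (mean 112) in wild-type tumors. In tumors labelled RAG1-/- it was 2.22 to 19.1 (mean 7.35), with Cd3e, Cd3g and Cd8b1 at 0. That of 6 dendritic cell markers was 552 to 1203 against 359 to 655, with Xcr1 at 0 in the latter, and that of 9 macrophage and monocyte markers 11879 to 19338 against 11098 to 17575, all 9 read in both. Neutrophil markers (6 genes) summed to 31.3 to 119 against 39.3 to 251. Markers of B and plasma cells (7 genes) summed to 114 to 488 against 38.3 to 152. The NK cell markers (5 genes) summed to 130 to 243 against 112 to 183. Cultured MC38 cells alone held 190 to 235 on the NK cell list. All of it came from Eomes, with Ncr1, Klrb1c, Klrk1 and Klrd1 at 0. The NK cell sums of the tumors are therefore not read as levels of NK cells. The part of these cell types in the values of Pydc3 and Mndal was not tested.

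Genes were also ranked by how closely their log2 values followed Pydc3 over the 12 tumors (Pearson, with tumors of both hosts pooled, so that any gene that differs between hosts ranks high). The 5 most alike were Dhx29 (0.92), Zfp277 (0.91), Dennd3 (0.90), Lrp2 (0.88) and Luc7l (0.88), and none is a PYHIN gene. The 5 most opposed were Il15 (−0.96), Gm4841 (−0.94), Cd8a (−0.94), Iigp1 (−0.93) and Cxcl9 (−0.93). Il15, a cytokine that sustains NK and memory T cells, had 99.2 ± 20.9 normalized counts in wild-type tumors and 51.6 ± 5.16 in tumors labelled RAG1-/- (SD, n = 6 each). Within the family, Pydc3 correlated with Mndal at −0.71 over all 12 tumors, at −0.28 over the 6 wild-type tumors and at −0.63 over the 6 labelled RAG1-/-. The gene most like Mndal was Stat2 (0.95), a factor of type I interferon signalling, and those most like Ifi203, Ifi204 and Ifi205 were Ch25h (0.91), Zfp964 (0.96) and Oas2 (0.87). For Mnda it was Fam46a (0.93), for Pydc4 Pip4k2a (0.91), for Aim2 Gipc1 (0.86) and for Pyhin1 Rps19-ps12 (0.84). Among the members themselves, the highest correlations over the 12 tumors were 0.81 between Mnda and Mndal and 0.71 to 0.76 among Mndal, Ifi203 and Ifi204. Stretches from the 3′ end of Mndal also occur in Mnda and Ifi203, and the part of misplaced reads in these correlations was not tested.

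Cultured MC38 cells were compared with skin to see which family members the tumor line itself reads. Aim2 was the exception: it held 289 and 409 normalized counts in MC38 cells and 26.8 and 93.1 in skin, a log2 difference of 2.75 (SE 0.62, limma adjusted p = 0.0152). That call was lost without the first skin library (1.87, adjusted p = 0.0847) and without the second MC38 library (2.50, adjusted p = 0.0522 by limma). Aim2 made up 83.8% of the reads on the 10 genes in MC38 cells and 1.59% in skin (means of 2 libraries). Of the other 9 genes, 6 (Pydc3, Pydc4, Ifi202b, Ifi203, Ifi204 and Ifi205) passed the minimum only through skin, so that they had to be lower in MC38 cells and their tests say nothing more. Mnda, Mndal and Pyhin1 passed on both sides and were lower in MC38 cells, by log2 differences of −4.14 (Mnda) to −5.06 (Pyhin1). Reads counted on Mnda and Pyhin1 may belong to other copies that share their 3′ sequence. Of all 16780 genes tested, 41.2% were lower and 20.8% were higher, shares that include genes which passed on 1 side only. Mndal and Pyhin1 were still called without either skin library, whereas the call of Mnda was lost without either.

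The level in MC38 cells separated the members further. Pydc3, Pydc4, Ifi202b and Ifi205 had no read in either library, which with the floor of 3 reads put skin at least 25.7-fold, 70.6-fold, 45.9-fold and 110-fold higher. Against the first skin library alone these bounds were 8.28-fold, 15.1-fold, 39.5-fold and 86.7-fold. Ifi203 had 4 reads and 0, Ifi204 8 and 2, and Pyhin1 6 and 6. Mndal stood at 40.2 and 31.3 normalized counts and Mnda at 12.8 and 23.5, well above the floor. That floor covers counting error only. Of the 3′ stretches of Mnda, 77.4% also occur in another gene, so reads counted on Mnda may belong to another copy. The 3 leukocyte genes Ptprc, Laptm5 and Coro1a summed to 0 and 0.978 in these libraries.

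**Figure D3:**
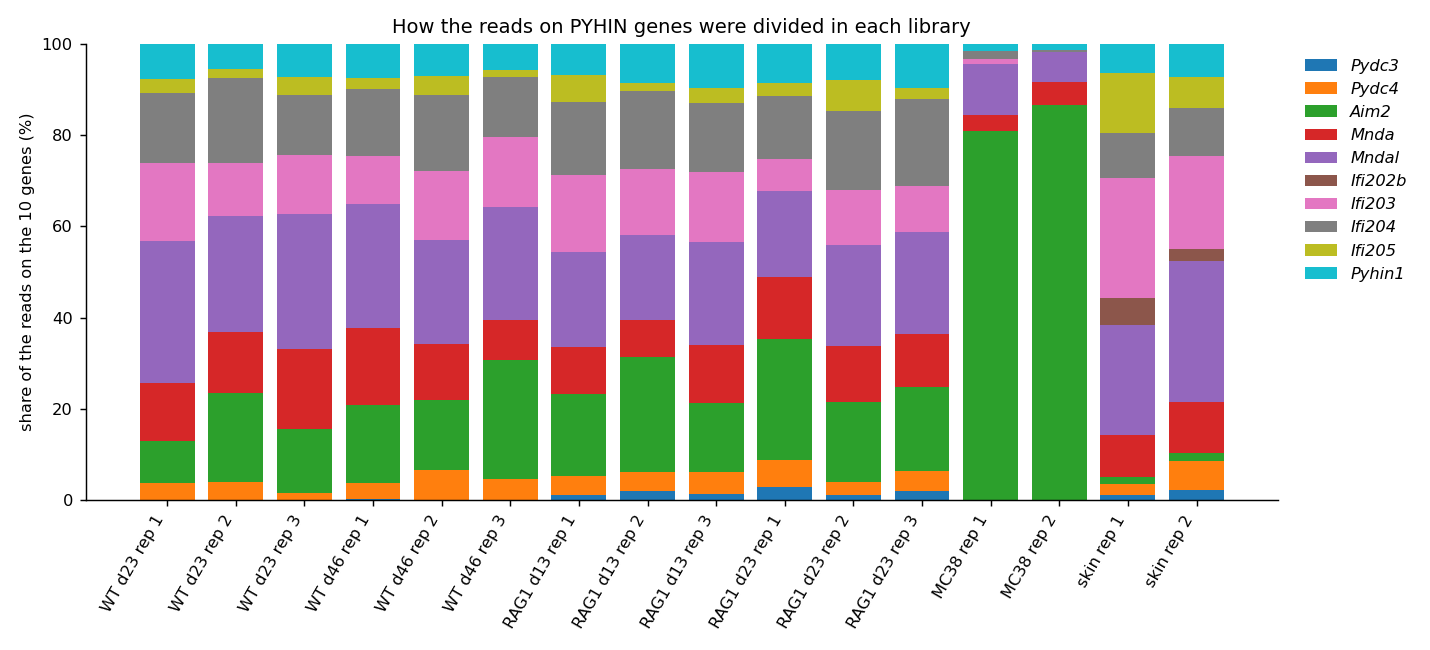
Share of the reads on the 10 PYHIN genes that fell on each gene, in percent, by library. Aim2 takes 83.8% of them on average in MC38 cells, and Pydc3 takes 1.73% in tumors labelled RAG1-/- and 0.091% in wild-type tumors; shares compare a gene between libraries, not genes with each other.

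In tumors, Mnda, Mndal and Pyhin1 were higher than in cultured MC38 cells in either host, 3 of the 4 genes that passed the minimum on both sides. Levels of Mnda and Pyhin1 are uncertain, because most of their 3′ stretches also occur in other genes. Among all 14708 genes tested 15.8% were higher in tumors labelled RAG1-/- and 18.3% in wild-type tumors, and among the 12656 and 12649 genes that passed on both sides these shares were 9.39% and 11.5%. Mndal, which was read in the cultured cells, rose by 3.29 and 3.89 on the log2 scale (SE 0.25 each). Both comparisons use the same 2 MC38 libraries. Pydc4, Ifi203, Ifi204 and Ifi205 passed the minimum only through the tumors, so that they had to be higher and are given by their levels. Ifi203 held 101 to 527 normalized counts in the 12 tumors against 4 reads and 0 reads in MC38 cells. Pydc4 was at least 27.0-fold higher in tumors labelled RAG1-/- and at least 29.5-fold higher in wild-type tumors, and Ifi205 at least 24.1-fold and 21.7-fold, against a floor of 3 reads per MC38 library. Pydc3, described only, was at least 10.6-fold higher in tumors labelled RAG1-/-, and no fold is given for wild-type tumors, where it was near the floor.

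The pathway genes that passed the minimum on both sides were counted in the same way. Of 21 genes stimulated mainly by type I interferon, 19 were higher than in MC38 cells in tumors labelled RAG1-/- and 20 in wild-type tumors (median log2 differences 2.12 and 2.34). Of 13 genes stimulated mainly by interferon gamma, 12 were higher in either host (medians 2.10 and 3.13), and of 6 inflammasome genes 4 and 5 (medians 1.44 and 1.70). Of 10 genes of cytosolic DNA sensing 2 and 3 were higher (medians 0.19 and 0.10), and 0 genes of these 4 lists were lower.

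Aim2 did not pass the test against MC38 cells. Its values were 285, 321 and 295 on day 23 and 288, 279 and 532 on day 46 in wild-type tumors, and 334, 444 and 244 on day 13 and 376, 321 and 341 on day 23 in tumors labelled RAG1-/-. All 3 groups overlapped: the log2 difference from MC38 cells was −0.03 (95% interval −0.55 to 0.50, limma adjusted p = 0.957) for RAG1-/- and −0.09 (−0.61 to 0.44, adjusted p = 0.846) for wild type. With 2 MC38 libraries, a difference of a size within these intervals is not excluded. Aim2 was higher in tumors than in skin, by 2.73 (SE 0.37, limma adjusted p = 2.16e-05) for RAG1-/- and 2.67 (SE 0.37, adjusted p = 2.93e-05) for wild type, where 23.9% and 22.8% of 16259 genes were higher. It stayed called without the first skin library (1.85 and 1.79) and without the second (3.61 and 3.55).

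Ifi202b, whose protein lacks a pyrin domain and antagonizes AIM2, showed the reverse of Aim2. It held 109 and 144 normalized counts in skin (81 and 113 reads) and 0 reads in each of the 12 tumors and 2 MC38 libraries. Skin was at least 46.3-fold higher than wild-type tumors and at least 36.0-fold higher than tumors labelled RAG1-/-, or 39.8-fold and 30.9-fold with the first skin library alone. Its last 500 bases shared no 50-base stretch with another gene.

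Of the 8 genes beside Pydc3 that passed the minimum in tumors and in skin alike, 3 were lower in tumors labelled RAG1-/- than in skin (Mndal, Ifi203 and Ifi205). In wild-type tumors 2 were lower (Ifi203 and Ifi205). Of all 16259 genes tested, 35.9% and 34.2% were lower, shares that include genes which passed only through skin. The counts of 3 and 2 of 8 do not stand apart from these shares. Ifi202b passed only through skin, so that it could only be lower, and is not counted. Ifi205, a regulator of inflammasome components, held 238 and 367 normalized counts in skin and 28.9 to 126 in the tumors, and fell by 2.34 on the log2 scale (SE 0.57, limma adjusted p = 0.00265) for RAG1-/- and by 2.43 (SE 0.57, adjusted p = 0.00219) for wild type. Ifi203 held 481 and 1109 in skin and 101 to 527 in tumors, with log2 differences of −1.81 and −1.41 (SE 0.40 each). Pydc4, Mnda, Ifi204 and Pyhin1 passed in neither host and Mndal not in wild-type tumors, with log2 differences of −0.74 to −0.07. The skin libraries decide these calls: without the first, 8 of 8 genes passed in either host, 7 of them lower, and without the second only Aim2 passed. Ifi205 then stood at −2.03 (adjusted p = 0.0637 by limma) and −2.12 (adjusted p = 0.0575), Ifi203 at −1.20 and −0.81, and Mndal at −0.30 for RAG1-/-. The call of Mndal was also lost under upper quartile and total rescaling, and that of Ifi203 in wild-type tumors under total rescaling. The median of all genes against skin was −0.20 for RAG1-/- and −0.18 for wild type. Pydc3, described only, stood at −0.89 and −4.61, and without the second skin library at 0.28 and −3.44, so that its sign for RAG1-/- turned.

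**Figure D4:**
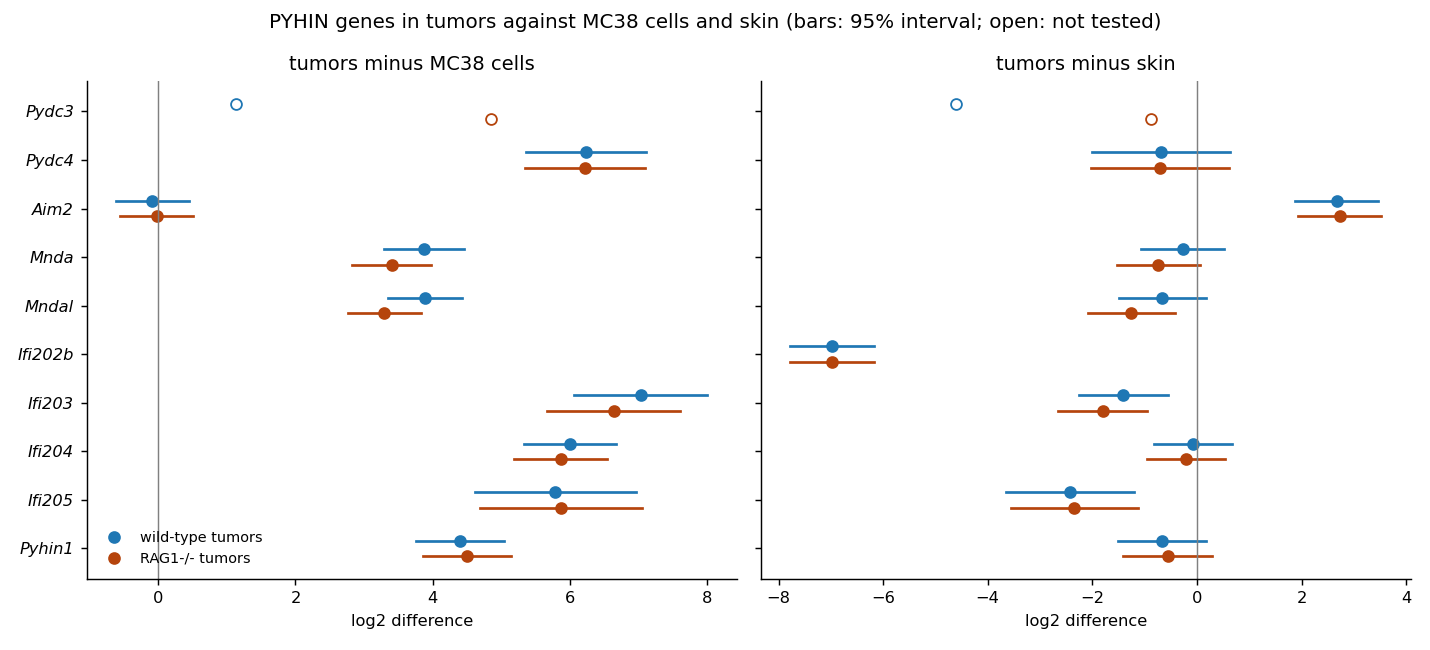
Log2 difference of tumors minus MC38 cells (left) and minus skin (right) for wild-type tumors and tumors labelled RAG1-/-, with 95% intervals from limma over both skin libraries; open points were not tested, Pydc4, Ifi203, Ifi204 and Ifi205 (left) and Ifi202b (right) passed the minimum on 1 side only, and Ifi202b, at 0 in tumors and MC38 cells, is absent on the left. Aim2 lies at −0.09 and −0.03 against MC38 cells and at 2.67 and 2.73 against skin, and Pydc3 is the one gene whose points for the hosts lie far apart.

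Tumor age was compared within each host. The day contrasts did not enter the choice of the genes, but the low level of Pydc3 in wild-type tumors did. None of the 9 genes in the fit passed for day 46 against 23 in wild-type hosts or for day 23 against 13 in tumors labelled RAG1-/-, by limma, edgeR or DESeq2, and limma called 0 of 14746 genes (0%) in each of these comparisons. In wild-type tumors Pydc3 had a log2 difference of 1.72 (95% interval 0.45 to 2.99, unadjusted p = 0.0111, adjusted p = 0.451 by limma), from 1 read on day 23 to 12 on day 46, higher in 3 of 3 tumors. It was the single member at an unadjusted p under 0.05, among 1261 of 14746 genes. Pydc3 was in the fit only through the tumors labelled RAG1-/-. Its wild-type means, 0.246 on day 23 and 3.14 on day 46, lay under the minimum, so nothing is read from this p-value. The other members ran from −0.49 (Mnda, interval −1.02 to 0.04) to 0.45 (Pydc4, −0.41 to 1.30). In tumors labelled RAG1-/-, Pydc3 differed by 0.27 (−1.0 to 1.54, limma adjusted p = 0.907), and Ifi203 had the largest difference, −0.75 (−1.49 to −0.000955, unadjusted p = 0.0497, adjusted p = 0.427), among 1722 genes at an unadjusted p under 0.05. With 3 tumors a group, differences of the sizes inside these intervals are not excluded.

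The test of whether the day change differed between the hosts gave 0 of 9 members by limma, edgeR and DESeq2, with 0 at an unadjusted p under 0.05, and 0 of all 14746 genes (0%), 1279 of them at an unadjusted p under 0.05. The difference was 1.45 for Pydc3 (95% interval −0.34 to 3.25, limma adjusted p = 0.668), 0.55 for Pydc4 (−0.65 to 1.76) and −0.74 for Mnda (−1.50 to 0.01). The day pairs of the hosts are not the same days, so host and days cannot be told apart in it. For Pydc3 it also rests on wild-type values near the floor.

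**Figure D5:**
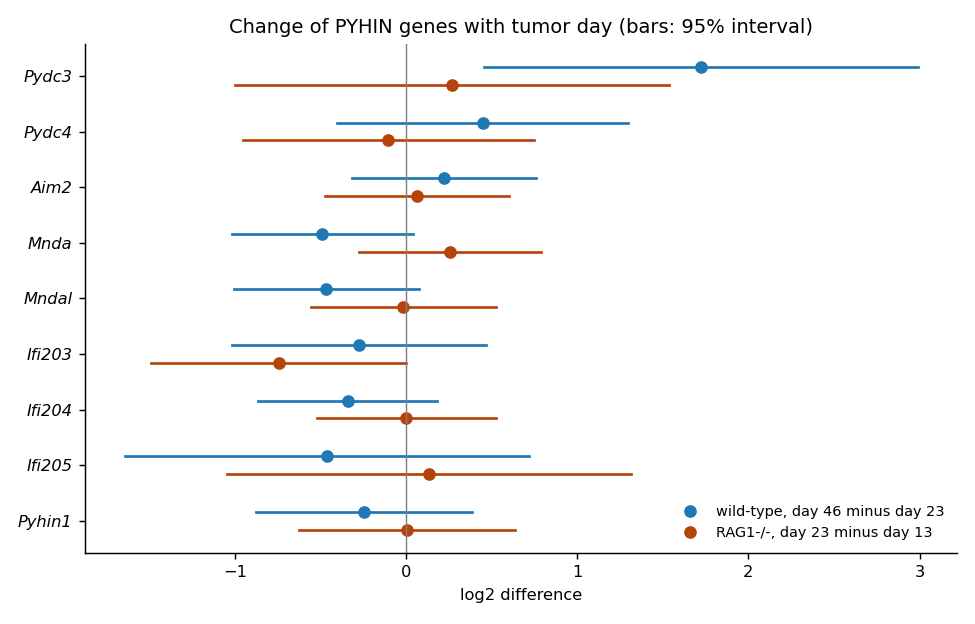
Log2 difference between days within each host for the 9 members in the fit, with 95% intervals from limma (3 tumors a group). Pydc3 in wild-type tumors, at 1.72, has an interval clear of 0 before adjustment over all genes, but it rests on 1 read against 12. Pydc3 is in the fit only through the tumors labelled RAG1-/-.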

How the data were processed

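QuantSeq 3′ libraries were made from RNA of 12 tumors, 2 MC38 samples and 2 skin samples and sequenced on an Ion Proton instrument. According to the methods, the authors trimmed reads with Cutadapt and Trimmomatic, removed those under 22 bases, aligned them to mm10 with STAR and Bowtie2 and counted them per gene with HTSeq. The deposited signal is a count per gene normalized by the authors with DESeq2 size factors. Multi-mapping reads kept their primary alignment, so a read can fall on the wrong copy of a PYHIN gene. The strand setting, annotation and versions are not given in the sources used here. All values (100%, tolerance 1e-04 reads) were whole multiples of 1 read, so whole reads were recovered. Libraries held 5589151 to 26134241 reads on genes.

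The main test was limma 3.58.1 (R 4.3.3) on log2(normalized count + 1), for genes averaging 5 or more over the fitted libraries, with a trend, two-sided, Benjamini-Hochberg adjusted over all genes, at 0.05. Tumors were fitted together (12 libraries, 4 groups), with MC38 cells or skin added for those comparisons, and MC38 cells against skin with 4 libraries. The steps were tested on simulated data. Alternatives were pseudocounts of 0.1 and 5, no filter, a mean of at least 20, upper quartile and total rescaling, a fit with no trend, a block for the replicate number, edgeR 4.0.16, DESeq2 1.42.0, all 16 libraries in 1 fit, and each library left out. Where this left 1 library in an arm, it was assumed to vary like the other groups.

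The members and gene lists were chosen with earlier results of these data known. The text names the members, up to 4 genes per list (highest mean and largest host difference), and the genes most and least like Pydc3 or most like another member. By the same rule the nearest coding neighbours of the cluster were read: Cadm3, which overlaps Aim2 on the opposite strand, at 0 to 8.51 normalized counts in tumors, and Olfr433 at 0 to 2.13. Keratin, lymphocyte and sex-linked genes serve as checks, and 1 result is not reported here. Names were matched to RefSeq and GENCODE, 6 members by symbol and 4 by an older name. Promoters of 9 members were found, and that of Ifi204 was not analysed here. The 6 columns of a table on other treated tumors match no sample label and were not used.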

Additional observations from a re-analysis of the deposited data

Results flagged for a closer look

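In each host the 6 tumors were searched for a library far from the rest, its gap to the nearest tumor over the whole range being above 0.625. Of 18 sets searched 3 stood out, and chance alone gives about 1 in 20. Pydc4 was lowest in replicate 2 of RAG1-/- day 23, at 53.2 normalized counts, the library with the fewest reads. Aim2 was highest in replicate 3 of wild type day 46, at 532, and Ifi204 was highest in replicate 1 of wild type day 23, at 479, a tumor that also had the highest values of Mndal, Mnda, Ifi203 and Pyhin1 among wild-type tumors.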

How the results depend on the processing

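The numbers of members called against MC38 cells (7 in either host, 4 of them over the minimum only through the tumors) and between days (0) kept their values under all alternatives run. Over all results, 1268 of 1330 alternative values were counted as the same. For a tested gene this meant the same direction and side of the threshold, and for a count a change of at most 1.5 times. For a host difference it meant a shift under 1 SD within groups, whatever the sign. The total includes members which passed the minimum on 1 side only, whose direction was fixed. It also includes the host difference of Pydc3, on which that gene was chosen. The total is therefore not read as a measure of robustness. Leaving out 1 library gave host differences of −0.20 to 0.24 (Pydc4), −0.21 to 0.05 (Aim2), −0.31 to 0.18 (Ifi205) and −0.27 to 0.08 (Pyhin1), all counted as the same. Leaving out 1 library gave 6 to 10 calls for MC38 cells minus skin, 2 to 9 for each host minus skin (counts that include members which passed the minimum on 1 side only), and −3.89 to −3.62 for Pydc3 between the hosts. That log2 difference was −5.16 with a pseudocount of 0.1, −2.35 with 5, −4.68 with edgeR and −4.82 with DESeq2. The number of members that did not overlap between the hosts went from 2 to 1 under upper quartile and total rescaling. These rescalings moved the median of all genes against skin by 0.41 to 0.50 (log2). The share of called genes that were higher went from 33.5% to 49.1% (upper quartile) and 46.8% (total) for MC38 cells minus skin, from 39.9% to 59.5% and 56.6% for RAG1-/- minus skin, from 40.0% to 59.7% and 57.7% for wild type minus skin, and under the upper quartile from 67.6% to 55.3% and from 65.5% to 50.2% for RAG1-/- and wild type minus MC38 cells. They reversed uncalled differences from skin: Ifi204 to 0.28 and 0.20 for RAG1-/- and 0.38 and 0.32 for wild type, and Mnda to 0.18 and 0.12 for wild type. Leaving out 1 library turned further uncalled values, within −0.27 to 0.22 (RAG1-/-) and −0.33 to 0.16 (wild type) for Aim2 minus MC38 cells and −0.0096 to 0.88 for the day change of Pydc4 in wild-type tumors. Against skin the ranges for RAG1-/- were −2.22 to 0.81 (Pydc4), −1.65 to 0.17 (Mnda), −1.03 to 0.62 (Ifi204) and −1.42 to 0.30 (Pyhin1). For wild type they were −2.21 to 0.82 (Pydc4), −1.19 to 0.64 (Mnda), −1.63 to 0.29 (Mndal), −0.89 to 0.75 (Ifi204) and −1.53 to 0.20 (Pyhin1). The cause of these changes was not tested, apart from the skin library left out.

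Whether replicate numbers pair the tumors is not settled. Same-numbered tumors correlated at −0.24 to 0.25 (median 0.01) in their deviations, and differently numbered tumors at −0.21 to 0.20 (median −0.01). Of the 12 tumors, 6 correlated best with their own number. No chance level was worked out for that count, so a weak pairing is not excluded. With the replicate number as a block, the counts of members called stayed at 10 for MC38 cells minus skin and 7 against MC38 cells. They stayed at 5 (RAG1-/-) and 4 (wild type) against skin and at 0 between days. All but the last include members which passed the minimum on 1 side only. Among members that passed on both sides, 4 were called for MC38 cells minus skin and 3 in either host against MC38 cells. Against skin these counts were 4 (RAG1-/-) and 3 (wild type). In all genes the block moved no count by over 1.5 times. DESeq2 called 41 (wild type) and 206 (RAG1-/-) genes between days and 58 for the difference of the day changes, where limma called 0. Depth limits Pydc3 in wild-type tumors, where 1 to 5 reads carry the values above 0.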
